A study of Homo sapiens with 2 samples.

Results

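The 10 genes described here encode the kinases of the p38 and JNK stress pathways and were read in IGROV1-R10, a subline of human ovarian carcinoma IGROV1 cells that resists cisplatin. They were taken as a list (MAP2K3, MAP2K4, MAP2K6, MAP2K7, MAPK8, MAPK9, MAPK11, MAPK13, MAPK14 and MAPKAPK2), chosen by their place in the pathways and by their differences on these arrays, MAP2K6 above all, so the values below describe the genes and support no choice of them. Of the 10, 7 had a value among 22465 genes in all, and 6 of these were among the 14373 genes above the signal filter. The study hybridised total RNA to 2 whole-transcript expression arrays. The cells of the first array had received a duplex of miR-491-5p, a small RNA that represses messenger RNAs, and those of the second a control miRNA duplex. Each duplex was given at 20 nM, 24 hours after seeding, with the transfection reagent INTERFERin, and labelling started from 100 ng of RNA. The question is which transcripts are changed in abundance by miR-491-5p. Each group had 1 array, so differences carry neither a replicate error nor a p-value, and "higher" and "lower" describe this pair of arrays alone. Signals are taken as log2, a scale whose base no source states, so folds are powers of 2 of the deposited differences, and every difference is miR-491-5p minus control.

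The p38 and JNK pathways are kinase cascades that carry signals of stress, cytokines and damage from the membrane to the nucleus. A MAP kinase kinase kinase (MAP3K) phosphorylates a MAP kinase kinase (MAP2K), which phosphorylates a MAP kinase (MAPK) on a threonine and a tyrosine. MAP2K3 and MAP2K6 activate the p38 kinases, MAP2K7 activates the JNK kinases, and MAP2K4 acts mainly on JNK and also on p38. MAPK8 and MAPK9 encode JNK1 and JNK2. MAPK14, MAPK11 and MAPK13 encode p38 alpha, beta and delta, and MAPKAPK2 encodes MK2, a kinase that p38 activates and that regulates messenger RNA stability and the heat shock protein HSP27. Both pathways are studied in ovarian carcinoma cells for their part in the response to cisplatin. The arrays measure the messenger RNA of these kinases, not their phosphorylation, on which their activity depends.

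The groups differ by the duplex given, whose reagent sequence was not used here. The miR-491-5p strand is shown first because the duplex of the first array is named for it. Its RefSeq sequence (GRCh38.p14, chr9:20716120-20716141, plus strand) has 22 bases, with the seed, bases 2 to 8, in capitals:
hsa-miR-491-5p: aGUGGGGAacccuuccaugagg
Among 2370 mature human miRNA names in the RefSeq table, 1 held this seed, miR-491-5p itself. A miRNA lowers messenger RNAs that pair with its seed. Transcript sequences of the kinases were not used here, so no target sites were looked for.

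Accounting for all 10 genes, 3 gave no value. The probe set for MAP2K3 carried several gene symbols and stayed out. MAP2K7 and MAPK14 had no probe set under their symbols in the annotation used. The p38 branch was therefore read through MAP2K6, MAPK11, MAPK13 and MAPKAPK2, without p38 alpha. The JNK branch was read through MAP2K4, MAPK8 and MAPK9. Each of the 7 genes had 1 probe set, so no second probe set checks a value. MAPK11 lay below the signal filter, the median of all values on both arrays (5.55). Whether its messenger RNA was present could not be told, since signal over background is unknown.

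MAP2K6 stood apart from the rest of the kinases on these arrays. It read 10.05 on the miR-491-5p array and 9.09 on the control array, a difference of 0.96 (1.95-fold higher). Of the 6 genes above the filter, it alone was at least 1.5-fold higher. Over all 14373 genes 0.675% were higher and 3.62% lower by 1.5-fold or more, while past 2-fold 0.0487% were higher and 0.758% lower. At 3-fold these shares were 0% and 0.132%. None of the 6 genes reached 2-fold as deposited, and MAP2K6 crossed it once the differences were centred on the median of all genes (1.03) or corrected by a loess curve on signal (1.03). Since the genes were picked with these differences known, their counts are not read against those shares.

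Within the whole array MAP2K6 ranked 10th from the top of 14373 genes. The middle 95% of all differences ran from -0.68 to 0.37, with a median of -0.07, so MAP2K6 lay outside that range. Of 1735 genes whose mean signal lay within 0.5 of that of MAP2K6, itself included, 3 had a difference at least as high. MAP2K6 was picked with its difference known, so these places describe its value and are no test of it.

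**Figure D1:**
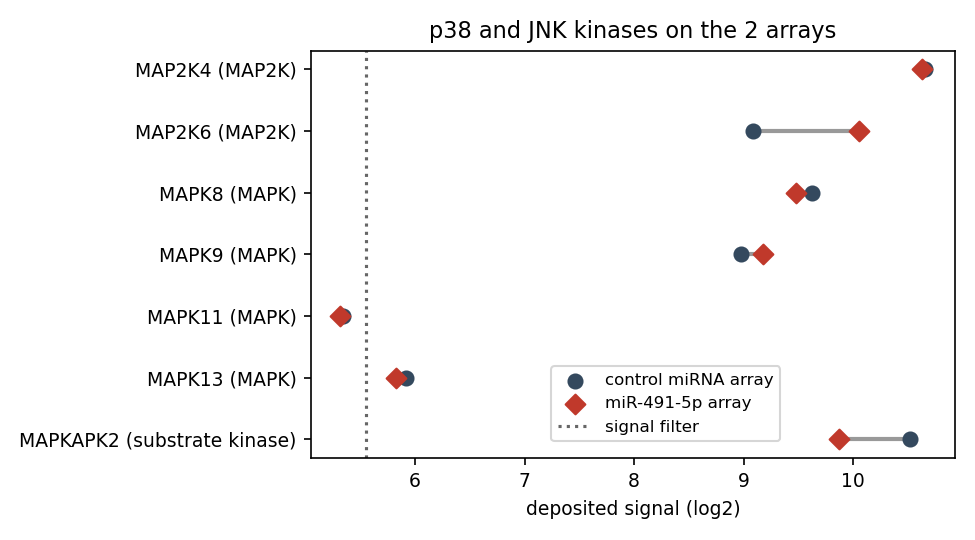
Deposited log2 signal (horizontal axis) of the 7 kinases with a value, with the control miRNA array as circles and the miR-491-5p array as diamonds joined by a line, and the signal filter of 5.55 dotted. MAP2K6 moves right from 9.09 to 10.05, MAPKAPK2 moves left from 10.52 to 9.87, and the other 5 pairs lie close together.

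The other measured MAP2K, MAP2K4, the kinase that links both branches, was level between the arrays. It read 10.63 with miR-491-5p and 10.66 with the control, a difference of -0.03 that turned to 0.04 after median centring and 0.05 after the loess correction. With these 2 genes the MAP2K tier had a median difference of 0.465, which is the midpoint of a gene near 0 and a gene near 2-fold. It describes neither gene and rests on MAP2K6 alone.

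The MAPK tier differed little. MAPK8, encoding JNK1, read 9.48 on the miR-491-5p array against 9.62 on the control, a difference of -0.14 (1.10-fold lower). MAPK9, encoding JNK2, read 9.18 against 8.98, a difference of 0.20 (1.15-fold higher). The JNK genes therefore went opposite ways by small amounts, both inside the middle 95% of all genes. Of 1811 genes with signal like that of MAPK9, 198 were at least as high, and of 1736 like MAPK8, 678 were at least as low. MAPK13, encoding p38 delta, lay just above the filter at 5.83 against 5.92 (-0.09), and MAPK11, encoding p38 beta, below it at 5.32 against 5.34 (-0.02). The 3 MAPK genes above the filter had a median of -0.09, close to the -0.07 of all genes.

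Set against each other, the tiers' medians were 0.555 apart, the MAP2K tier higher. That gap came from MAP2K6, because MAP2K4 (-0.03) fell inside the MAPK range of -0.14 to 0.20. No statement about the tiers as such can be made from 2 genes and 3.

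MAPKAPK2, the kinase below p38, went the other way from MAP2K6. Its signal was 9.87 with miR-491-5p and 10.52 with the control, a difference of -0.65 (1.57-fold lower). It was the 1 gene of the 6 that was at least 1.5-fold lower, and it came to -0.58 after median centring and -0.57 after loess, just short of 1.5-fold. Of 1635 genes of like signal, 76 were at least as low. Negative differences were commoner than positive ones (9313 of 14373 genes), so MAPKAPK2 lay less far out than MAP2K6 did and stayed inside the middle 95% of all genes.

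**Figure D2:**
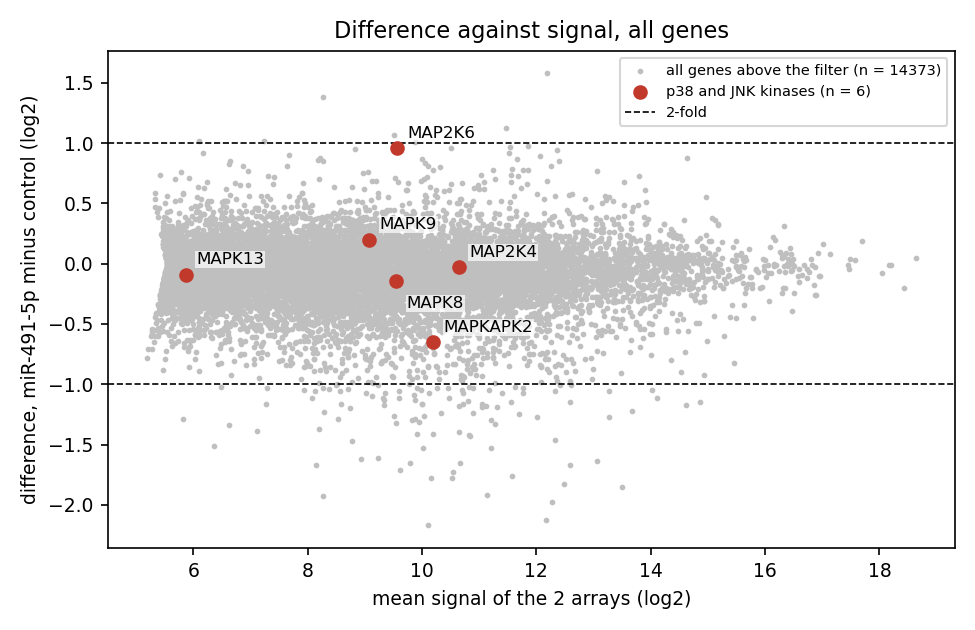
Difference between the arrays (log2, vertical axis) against the mean signal of both arrays (log2, horizontal axis) for 14373 genes above the filter in grey, with 6 kinases in red and 2-fold dashed. MAP2K6 (0.96) sits at the upper edge of the cloud, MAPKAPK2 (-0.65) in its lower fringe, and MAP2K4, MAPK8, MAPK9 and MAPK13 within it.

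RefSeq gives MAP2K6 a pair of transcription start windows on chromosome 17, printed here because MAP2K6 carries the main difference and the deposited value does not separate its starts. Each holds 250 bases before and 50 after a start on the plus strand of GRCh38.p14, with every CG dinucleotide in capitals. The upstream window is chr17:69414447-69414746 and the downstream one chr17:69502012-69502311.
MAP2K6 upstream start: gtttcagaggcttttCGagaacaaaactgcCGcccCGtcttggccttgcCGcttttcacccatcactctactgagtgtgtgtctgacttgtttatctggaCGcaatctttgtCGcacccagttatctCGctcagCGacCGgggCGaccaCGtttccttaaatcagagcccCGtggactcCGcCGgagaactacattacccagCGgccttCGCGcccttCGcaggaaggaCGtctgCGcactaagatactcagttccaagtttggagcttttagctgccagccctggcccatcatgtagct
MAP2K6 downstream start: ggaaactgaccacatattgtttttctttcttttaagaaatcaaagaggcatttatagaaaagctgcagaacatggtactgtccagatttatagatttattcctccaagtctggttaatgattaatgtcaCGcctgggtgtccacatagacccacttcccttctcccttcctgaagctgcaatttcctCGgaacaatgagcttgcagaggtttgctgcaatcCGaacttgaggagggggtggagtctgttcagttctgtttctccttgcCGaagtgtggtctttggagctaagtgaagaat
The upstream window held 20 CG dinucleotides and 55.0% G or C, and the downstream window 4 and 43.3%. The median over 35116 windows of all genes was 14 CG and 58.7% G or C, so the MAP2K6 starts lie on either side of the median for CG. MAP2K4 (38 CG), MAPK8 (46) and MAPK13 (46), each with a single window, had more CG than either MAP2K6 start. MAPK9 had 3 windows, with 47, 15 and 6. The AP-1 motif TGANTCA, which reads the same on both strands, is bound by dimers of JUN, a JNK substrate. It was in 1 of the 13 windows of the 9 members in the table, a MAP2K3 window, against 7.71% of all windows, and in neither MAP2K6 window. A match is a description of the letters only.

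Genes next to MAP2K6 on chromosome 17 did not share its difference. Of the 3 nearest measured protein-coding genes on each side in RefSeq order, 4 were above the filter, and their differences ran from -1.37 to 0.27. ABCA5, a lipid transporter gene, differed by 0.18, and the potassium channel genes KCNJ2 and KCNJ16 by 0.27 and -0.33. SOX9, a transcription factor gene, read 7.51 against 8.88 (-1.37). These neighbours were looked up after the value of MAP2K6 was known.

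On both array values, the genes most like MAP2K6 were TMCC3, AKTIP and SMPDL3B. The search covered protein-coding genes above the filter and left out uncharacterised loci. Likeness was the Euclidean distance between pairs of log2 signals over the 2 arrays, which also counts probe-dependent signal. TMCC3, a membrane protein of the endoplasmic reticulum, lay at a distance of 0.11 and read 10.05 against 8.98. AKTIP, an AKT-interacting protein, lay at 0.19 (9.88 against 9.17), and SMPDL3B, a membrane phosphodiesterase, at 0.20 (9.92 against 9.24).

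The wider cascade was covered by 7 lists of 69 genes, 62 of them above the filter. Their median difference was -0.11, against -0.07 for all genes, and 44 of the 62 were below 0, where 64.8% of all genes were. At 1.5-fold 6 were lower and 0 higher, beside the shares of 3.62% and 0.675% over all genes. No gene of these lists came near the difference of MAP2K6 on the high side.

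Upstream, all 17 MAP3K tier genes were above the filter, with a median of -0.03 (0.04 after median centring, 0.03 after loess). MAP3K5, which encodes the stress-responsive kinase ASK1, an activator of MAP2K6 and MAP2K4, read 9.59 on the miR-491-5p array against 10.66 on the control. At -1.07 (2.10-fold lower) it was the 1 pathway gene past 2-fold, still just 2-fold lower after centring and at -0.99 after loess. MAP3K11, encoding the JNK activator MLK3, read 7.73 against 8.47 (-0.74). MAP3K12, encoding the neuronal stress kinase DLK, read 8.90 against 8.52 (0.38), and MAP3K3 differed by -0.30. So the ASK1 gene and MAP2K6, which act in sequence, differed in opposite directions. The remaining 13 ran between those values, among them MAP3K7, encoding TAK1 (-0.01).

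Among the kinases that p38 activates besides MAPKAPK2, 4 of 6 were below 0, near the 64.8% of all genes, with a median of -0.14. MAPKAPK3, encoding MK3, the closest relative of MK2, read 7.61 against 8.31, a difference of -0.70 (1.62-fold lower). RPS6KA4, encoding the chromatin kinase MSK2, read 7.75 against 8.31 (-0.56). MKNK1, encoding a kinase of the cap-binding factor eIF4E, differed by 0.25 and MAPKAPK5 by -0.18. Both MK2 and MK3 genes were thus more than 1.5-fold lower as deposited, whereas after centring MAPKAPK3 stayed past 1.5-fold (-0.63) and MAPKAPK2 did not (-0.58). The p38 and JNK genes outside the 10, MAPK10 (JNK3) and MAPK12 (p38 gamma), differed by 0.05 and -0.22.

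**Figure D3:**
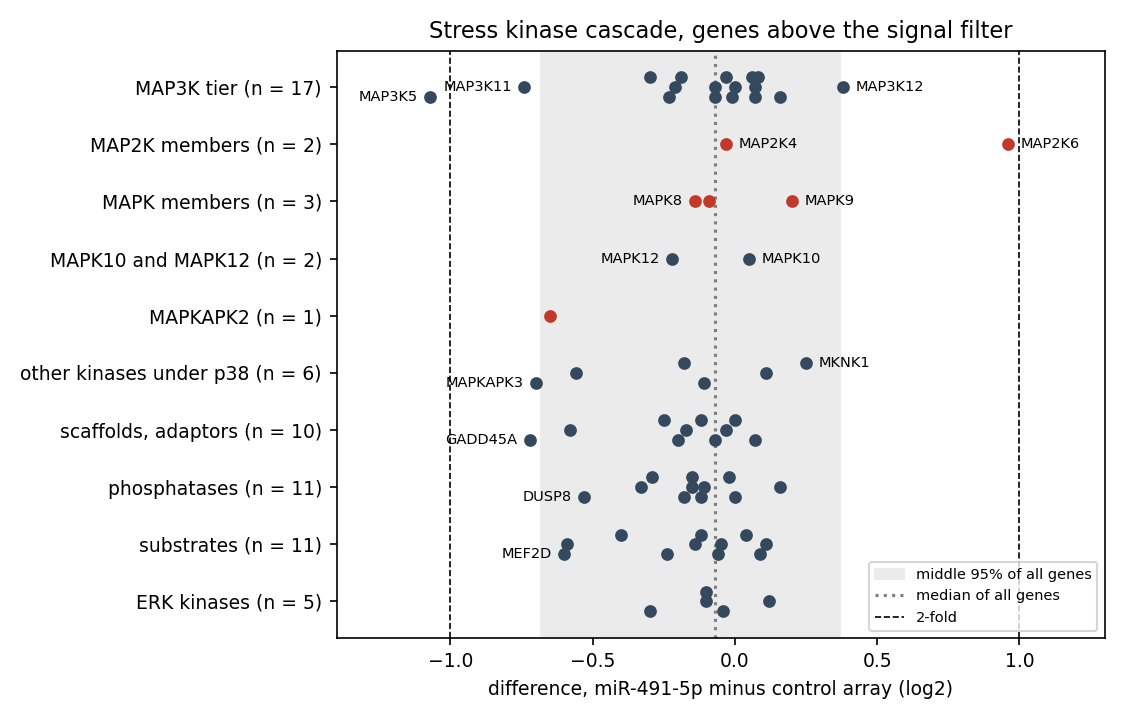
Difference between the arrays (log2, horizontal axis) of each gene above the filter, by its place in the cascade, with the 6 kinases described here in red, other pathway genes in dark blue, the middle 95% of all genes shaded, their median dotted and 2-fold dashed. MAP2K6 (0.96) is the highest point and MAP3K5 (-1.07) the lowest, with MAPKAPK2 (-0.65) and MAPKAPK3 (-0.70) to the left.

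Scaffolds and adaptors had 8 of 10 genes below 0, against 64.8% of all genes, and a median of -0.15. GADD45A, a stress-induced gene whose product binds MAP3K4, read 10.45 against 11.17 (-0.72, 1.65-fold lower). SH3RF1, a JNK scaffold also called POSH, differed by -0.58, and the TAK1-binding adaptor genes TAB2 and TAB3 by -0.25 and -0.20. Of the listed phosphatase genes, 9 of 11 above the filter were below 0, beside the same 64.8%, with a median of -0.15. DUSP8, a JNK and p38 phosphatase, differed by -0.53, DUSP4 by -0.33, DUSP14 by -0.29 and DUSP22 by -0.18. None of these 4 phosphatase genes reached 1.5-fold.

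Of the substrate genes 8 of 11 above the filter were below 0 and 3 above, with a median of -0.12, beside the 64.8% below 0 and the median of -0.07 of all genes. JUN, the transcription factor that gives JNK its name, read 7.51 against 7.91 (-0.40). MEF2D, a transcription factor of the p38-regulated MEF2 family, read 9.34 against 9.94 (-0.60), and DDIT3, which encodes CHOP, 7.09 against 7.68 (-0.59). ELK1, an ETS transcription factor, differed by -0.24. MEF2D and DDIT3 were at -0.53 and -0.52 after median centring, short of 1.5-fold.

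The kinases of the ERK1/2 and ERK5 cascades, the closest relatives of the p38 and JNK kinases, had 5 of 6 genes above the filter and differences from -0.30 to 0.12. MAPK3 (ERK1) differed by -0.30, MAP2K5 by 0.12, MAP2K2 by -0.10 and MAPK7 (ERK5) by -0.10. The median of these 5 was -0.10, beside -0.06 for the 6 stress kinases, and the gap between the families was not tested. None of the ERK kinases came near the 0.96 of MAP2K6.

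The line's label was set against marker genes once. Of 10 ovarian carcinoma and epithelial markers 9 were above the filter, with differences from -0.60 (KRT18) to 0.50 (CDH1), 4 of them below 0 and 5 above. KRT8 differed by -0.44 and MECOM by 0.45. PAX8, which marks the lineage, read 14.59 and 14.77 on the miR-491-5p and control arrays, MUC16, the CA125 gene, lay near the filter at 5.94 and 5.89, and MSLN was below it (5.18 and 5.27). Of the leukocyte markers with a value, 2 of 4 were above the filter, CD68 (10.54 and 10.76) and CD3E (5.59 and 5.94), while PTPRC (4.68 and 4.76) and CD14 (4.29 and 4.42) were below. Of 5 fibroblast markers COL1A1 reached it on the control array only (5.51 and 5.58). Of 4 endothelial markers CDH5 was above it and far lower on the miR-491-5p array (11.10 and 13.23), while PECAM1 (4.51 and 4.35), VWF (5.07 and 5.20) and KDR (4.51 and 4.57) were below. The part of these markers in the values above was not tested.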

How the data were processed

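The authors deposited a log2 signal for each transcript cluster, here a probe set, on each array. RMA produced it, per the submitters' processing notes. Base 2 is assumed from RMA, whose version and background step are not given in the sources. Values reach 19.22, above the usual log2 span of scanner intensities, so the scale may be stretched, which would change every fold and count past a fold size. Scanner intensities were not used, so signal over background is unknown. Probe sets with exactly 1 gene symbol in GEO's platform annotation (23781 of 67528) gave 22465 genes, each by its probe set of highest mean signal, with symbols updated through RefSeq. Genes were kept when the higher value was at or above 5.55. The number of arrays, 1 for each group, limits the precision, and differences were taken as deposited, with no test. Genes named were all members, up to 4 per list with the largest differences, and the 3 protein-coding genes nearest to MAP2K6. MAP3K7, the chromosomal neighbours of MAP2K6 and the marker genes were named outside this rule, after their values were seen. The members and lists were chosen with earlier results of these data known. Alternatives were median centring, loess (span 0.3), no filter, both arrays above the filter, mean probe sets, and 1.5-fold and 3-fold sizes. The counting was tested on simulated data with 200 changed genes. Their changes lay well past 2-fold, so the test does not bear on values close to a fold size, such as that of MAP2K6. Python 3.11.15, pandas 2.3.3 and statsmodels 0.14.6 were used. Sequences are RefSeq's (GRCh38.p14); 9 of 10 members had a start window.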

Additional observations from a re-analysis of the deposited data

How the results depend on the processing

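No paired analysis was possible because only 1 array exists for either transfection, which also leaves no replicate to omit. A value was taken as moved when it crossed 0, 1.5-fold or 2-fold. MAP2K6 moved to 1.03 under both median centring and loess, so 1 member was then at least 2-fold higher, against 0 as deposited. Shares of all genes were counted as deposited only, with 0.0487% at least 2-fold higher. At 1.5-fold 1 member was higher and 1 lower, beside 0.675% and 3.62% of all genes. The count of pathway genes at least 2-fold lower (1) went to 0 under loess and at 3-fold, and to 6 at 1.5-fold. Of all genes as deposited, 0.758% were lower by 2-fold, 0.132% by 3-fold and 3.62% by 1.5-fold. The tier medians and their gap kept their sign and side in all 5 alternatives of scaling, filter and probe sets. For the gap most of these could show nothing. Centring cannot change it, nor can the probe set mean where each member has 1 probe set. Requiring both arrays above the filter kept the same members. The gap was 0.554 under loess and 0.52 with no filter, against 0.555 as deposited. Among single genes, 149 of 160 comparisons kept sign and side. The other 11 came under centring or loess, in MAP2K6, MAP2K4, MAPKAPK2, DDIT3, MEF2D and MAP3K5, and none past a fold size changed sign. Every gene compared had 1 probe set, so the filter and probe set alternatives could not alter its value. Those comparisons stayed the same by construction and say nothing about stability. Centring raised each difference by 0.07, by construction. Depth does not apply to arrays.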
